A study of Mus musculus with 586 samples.

Results

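The data describe 10 genes of the blood and endothelial progenitor programme across the gastrulating mouse embryo, chosen as a named list. They are the VEGF receptor genes Kdr and Flt1, the transcription factor genes Etv2, Tal1, Lmo2, Gata1, Gata2 and Runx1, and the endothelial surface genes Cdh5 and Pecam1. All 10 are among the 23361 genes of the tables. The series profiled C57BL/6 embryos between E5.5 and E7.5 by Geo-seq, in which a cryosection is dissected by laser and about 20 cells are sequenced as 1 library. The labels name no treatment and no altered allele, so the groups differ by stage, region and section. Section numbers were read as running from the distal tip to the proximal end, which is the order of the published atlas. The labels do not spell the region codes out, and these too were read as in that atlas. Mesoderm is M at E7.0 and MA (anterior) and MP (posterior) at E7.5. P is the posterior epiblast, where the primitive streak forms. A is the anterior epiblast or ectoderm, and EA and EP are anterior and posterior endoderm. Of 586 samples, 473 had a matching column: 22 libraries from 2 embryos at E5.5, 22 from 2 at E6.0, 109 from 6 at E6.5, 101 from 2 at E7.0, and 219 from 6 at E7.5. The codes M, MA and MP come from 2 embryos of each stage, embryos 1 and 2 at E7.0 and embryos 5 and 6 at E7.5. E7.5 embryo 4 has codes M1 and M2 with 9 libraries each, which entered no comparison between regions because the labels do not say how they relate to MA and MP.

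Blood and endothelium arise together in the mouse. Cells that leave the posterior streak enter the mesoderm, and those that move to the proximal and extraembryonic side form the blood islands of the yolk sac. KDR, the main receptor for VEGF-A, marks mesoderm with the potential to form both lineages, and FLT1 is a related receptor that also acts as a decoy for the ligand. ETV2 is an ETS factor at the head of the programme and activates Kdr and Tal1. TAL1 and LMO2 work in a complex with GATA factors, GATA1 drives red cell genes, and GATA2 and RUNX1 act in blood progenitors. CDH5 (VE-cadherin) and PECAM1 (CD31) hold endothelial cells together and appear later than KDR. Some of these genes are also used outside blood: Gata2 in trophoblast giant cells, which line the maternal blood spaces of the placenta.

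Markers of the labelled tissues were present. Mesp1, a gene of nascent mesoderm, averaged 183 FPKM in E7.0 and 59.1 FPKM in E7.5 mesoderm libraries, and 196 and 30.7 FPKM in P, so at E7.0 it did not separate mesoderm from P. T (Brachyury) averaged 264 and 496 FPKM in P, and Sox2, an epiblast and neural gene, 16.9 and 18.8 FPKM in A at those stages. Sox17 averaged 14.3 and 13.2 FPKM in endoderm. A library held roughly 0.488 to 26.0 M reads (median 3.27 M, with M for 1e+06 reads, estimated from the FPKM worth of single reads), and between 2683 and 11319 genes reached 1 FPKM. In the median library 1 read was worth 0.0534 FPKM of Kdr, 0.0762 FPKM of Tal1 and 0.361 FPKM of Etv2, so low values rest on few reads, fewest for Etv2. An exact 0 means that a gene was listed at 0, not that it was absent. Lmo2, Runx1 and Cdh5 each overlap another annotated gene (4931422A03Rik, Gm26626 and Gm29682), and strand was not given in the sources used here, so reads of each pair cannot be told apart.

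The promoters of Kdr and Etv2 are shown because these were the members whose rise toward the proximal end of the mesoderm passed the test. Each runs from 250 bases before to 50 bases after the annotated start (RefSeq, GRCm38.p6). That of Kdr lies on the minus strand at chr5:75978406-75978705 and that of Etv2 on the minus strand at chr7:30635803-30636102. Capitals mark matches to an ETS word (AGGAAG or CCGGAA) or an E-box word (CAGCTG or CATCTG), read on both strands.
Kdr: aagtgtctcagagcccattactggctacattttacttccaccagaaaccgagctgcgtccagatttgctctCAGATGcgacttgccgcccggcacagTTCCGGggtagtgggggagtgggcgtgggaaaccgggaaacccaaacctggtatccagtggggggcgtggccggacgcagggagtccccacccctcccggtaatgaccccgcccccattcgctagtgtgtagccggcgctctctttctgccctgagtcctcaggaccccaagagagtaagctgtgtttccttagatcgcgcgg
Etv2: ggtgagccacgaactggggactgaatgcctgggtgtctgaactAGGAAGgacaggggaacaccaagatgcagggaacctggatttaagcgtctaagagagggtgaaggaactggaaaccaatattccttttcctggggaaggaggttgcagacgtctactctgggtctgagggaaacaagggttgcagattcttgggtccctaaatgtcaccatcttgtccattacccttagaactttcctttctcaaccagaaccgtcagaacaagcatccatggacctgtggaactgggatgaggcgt
The E-box word of Kdr starts 179 bases and its ETS word 153 bases before the start, and the ETS word of Etv2 starts 207 bases before it. Promoters of 7 of the 10 members were matched, and these 7 genes have 10 promoters. An ETS word stood in 5 of these 7 genes (Kdr, Flt1, Etv2, Gata1 and Runx1), an E-box word in 3 (Kdr, Tal1 and Gata2) and a GATA word (AGATAA or TGATAA) in 1 (Tal1). Such short words are common: of 32851 promoters of the same length, 45.2% held an ETS word, 30.6% an E-box word and 18.6% a GATA word. Counted by promoter in the same way, 6 of the 10 held an ETS word, 3 an E-box word and 1 a GATA word. A match is a run of letters and no evidence of binding.

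The members lie on 9 chromosomes of GRCm38 and, apart from Kdr and Flt1, none shares one. Kdr spans chr5:75932827-75978458 and Flt1 chr5:147561604-147726011, both on the minus strand. Of the factor genes, Etv2 spans chr7:30633616-30635852, Gata1 chrX:7959260-7978071 and Runx1 chr16:92601466-92826149 on the minus strand. Tal1 spans chr4:115056426-115071755, Lmo2 chr2:103957986-103981878 and Gata2 chr6:88193891-88207032 on the plus strand. Cdh5 spans chr8:104101625-104144511 on the plus strand and Pecam1 chr11:106654217-106750628 on the minus strand. Positions are from the GENCODE annotation. The tables hold 1 value per gene, so isoforms are not separated.

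At E7.0 and E7.5 the genes were highest in different tissues. Kdr and Etv2 were highest in mesoderm, Lmo2 was highest in P, and Gata2, Runx1, Cdh5 and Pecam1 were highest in endoderm libraries. Flt1 and Gata1 were spread over mesoderm and anterior endoderm, and Tal1 stayed near 0 outside a few libraries. With 2 embryos in most groups the order of levels is loose: of 240 pairs of neighbouring groups in the members' orders, 234 overlapped within 1 SD of their means.

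**Figure D1:**
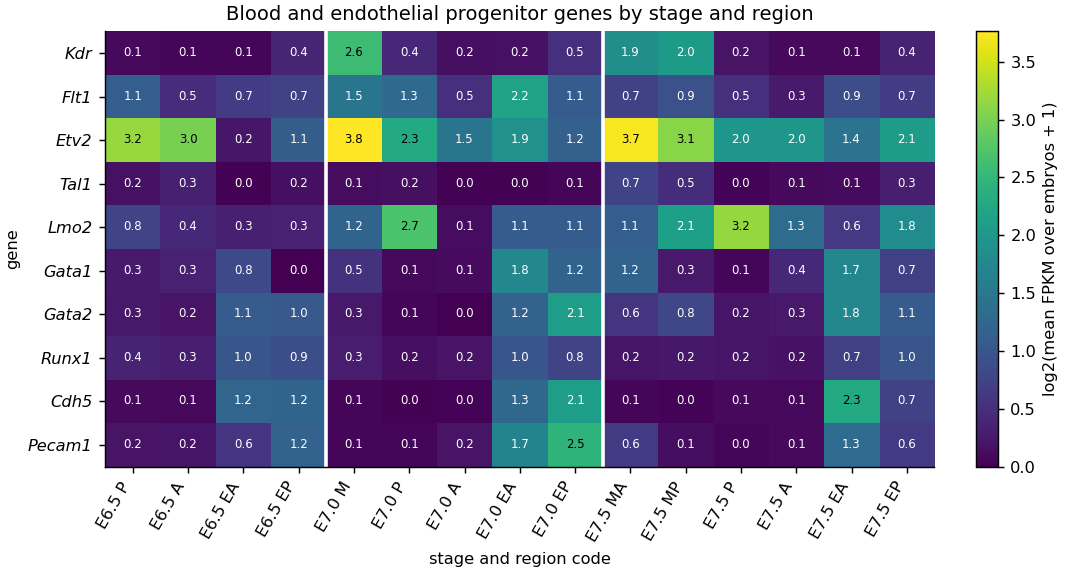
Mean level of each gene per stage and region, as log2 of the embryos' mean FPKM plus 1, with columns grouped by stage and the number printed in each cell. Kdr is brightest in M, MA and MP, Lmo2 in P at E7.0 and E7.5, and Cdh5 and Pecam1 in EA and EP. Etv2 is brightest in M and MA, and E6.5 P (8.098 FPKM) lies above MP (7.515 FPKM), with E6.5 A (6.921 FPKM) next.

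Kdr was highest in mesoderm. It averaged 5.01 ± 0.50 FPKM in E7.0 M, 3.13 ± 2.67 FPKM in E7.5 MP and 2.63 ± 1.47 FPKM in E7.5 MA (SD, n = 2 embryos each). Next came E7.5 M2 with 0.896 FPKM and the E7.5 code R with 0.693 FPKM (1 embryo each, so without SD), then E6.0 P with 0.609 ± 0.862 FPKM (n = 2), whose SD range overlaps that of MA. E7.5 M1 held 0.438 FPKM in 1 embryo, and the remaining groups averaged less. In sections holding both tissues, mesoderm had 4.65, 5.36, 1.42 and 4.35 FPKM in E7.0 embryos 1 and 2 and E7.5 embryos 5 and 6, against 0.192, 0.359, 0.102 and 0.254 FPKM in the endoderm of the same embryos. The groups did not overlap. Within embryo and section, mesoderm exceeded endoderm by 1.499 ± 0.232 on the log2(FPKM + 1) scale (SE; limma with Benjamini-Hochberg adjustment, adjusted p = 0.00271), in 4 of 4 embryos. In a dissected sample more cells of a type and more RNA per cell cannot be told apart. Mesoderm, at 3.94 ± 1.74 FPKM, also exceeded P, at 0.326 ± 0.193 FPKM (SD, n = 4 embryos each), by 1.39 ± 0.25 (SE; limma, adjusted p = 0.0125). In the 3 sections per embryo that hold both, mesoderm, at 3.76 ± 1.60 FPKM, exceeded A, at 0.0113 ± 0.0225 FPKM (SD, n = 4 each), by 1.72 ± 0.35 (SE; limma, adjusted p = 0.0228). The comparisons with endoderm, P and A use the same mesoderm libraries.

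Of the 10 members, 8 passed the filter of 1 FPKM in the comparison of mesoderm with endoderm. Kdr and Etv2 were higher and Gata1, Gata2, Cdh5 and Pecam1 lower in mesoderm by limma. Among all genes tested 30.6% were higher and 14.4% lower, so calls of either kind were frequent and the count says little about these genes as a set. These calls average E7.0 and E7.5. At E7.0 alone 2 members were higher and 3 lower, beside 1385 and 817 of the 9910 genes tested. At E7.5 alone 2 members were higher and 0 lower, beside 897 and 674 genes. Against P, 4 members could be tested. Kdr and Etv2 were higher in mesoderm, where 3.64% of all genes were, and Lmo2 was lower, as 44.7% of all genes were. At E7.0 alone 0 members were called against P, beside 0 of 9828 genes. At E7.5 alone 1 member was higher and 1 lower, beside 171 and 2094 genes. Against A, Kdr and Etv2 of 4 tested were higher, beside 2.62% of all genes. With either stage alone 0 members were called against A, beside 20 genes higher at E7.0 and 0 at E7.5. Kdr lay under 1 FPKM in endoderm, P and A of every embryo and passed these filters only through mesoderm. Gata1, Gata2, Cdh5 and Pecam1 lay under 1 FPKM in mesoderm of every embryo and passed only through endoderm. The filter favours such calls. The calls against P were all lost without E7.5 embryo 6, with no filter and with a pseudocount of 0.1. Only Lmo2 kept its call without embryo 5, and Etv2 lost its call without E7.0 embryo 1, at equal sum per library and without the replicate block (limma, adjusted p = 0.0713, 0.114 and 1). The count of all genes lower than in P also depends on scaling: it was 4391 of 9828 as deposited, 139 with libraries set to an equal sum and 267 with libraries set to an equal median. The calls against A were lost without any of the embryos except E7.5 embryo 5, whose removal kept Kdr alone.

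Within mesoderm Kdr rose toward the proximal end. The 3 most proximal M sections averaged 12.5 and 12.1 FPKM in E7.0 embryos 1 and 2, against 0.0302 and 1.55 FPKM in the 3 most distal. In embryo 1 the value was 20.9 FPKM in section 11, the most proximal, and 0 in sections 3 and 4. At E7.5 the proximal 3 sections of MA averaged 4.04 and 8.08 FPKM in embryos 5 and 6, against 0.280 and 0.398 FPKM in the distal 3, and those of MP 3.33 and 10.6 FPKM, against 0.142 and 1.15 FPKM. The proximal ends were higher in 6 of 6 stacks of sections, which come from 4 embryos, as MA and MP share their embryos. The fitted slope of Kdr was 3.27 ± 0.62 on the log2(FPKM + 1) scale from the most distal to the most proximal section (SE; limma, adjusted p = 4.46e-05), with 4.54 and 2.89 in the E7.0 embryos and 2.48 and 3.15 in the E7.5 embryos. The median slope of all genes was 0.44.

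Flt1, the related receptor gene, had another pattern. It was highest in E7.0 EA at 3.51 ± 2.39 FPKM, followed by E7.0 M at 1.75 ± 0.75 FPKM and E7.0 P at 1.43 ± 0.79 FPKM (SD, n = 2 each), and these overlap within 1 SD. All 7 highest Flt1 libraries were EA of E7.0 embryo 2, between 5.06 and 8.02 FPKM. Mesoderm had 1.22, 2.29, 0.393 and 1.16 FPKM of Flt1 in the 4 embryos, against 1.145, 3.495, 0.306 and 1.13 FPKM in endoderm. The groups overlapped, and the difference was -0.02 ± 0.12 (SE; limma, adjusted p = 0.915). Its mesoderm slope was -0.23 ± 0.31 (SE; limma, adjusted p = 0.581). At E6.5 Flt1 averaged 1.18 ± 0.44 FPKM in P and 0.391 ± 0.128 FPKM in A (SD, n = 6 each), higher in P in 6 of 6 embryos. It lay below the filter in that comparison. Tested with no filter, the difference of 0.54 missed the threshold (limma, adjusted p = 0.0651).

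Etv2 had the highest values of the 10. It averaged 12.6 ± 10.9 FPKM in E7.0 M, 12.28 ± 1.299 FPKM in E7.5 MA and 7.51 ± 1.19 FPKM in E7.5 MP (SD, n = 2 each). The E7.0 mean rests on 1 library, section 11 of embryo 1: without it, an alternative chosen after seeing the data, E7.0 M averaged 5.71 ± 1.16 FPKM (SD, n = 2), with 6.53 FPKM in embryo 1 where all sections gave 20.3 FPKM. Without that library Etv2 in mesoderm still exceeded endoderm by 1.40, P by 0.39 and A by 1.41 (limma, adjusted p = 0.00229, 0.0361 and 0.0270). The epiblast held Etv2 earlier, with 8.10 ± 4.68 FPKM in E6.5 P and 6.92 ± 5.86 FPKM in E6.5 A (SD, n = 6 each), and it passed no test between P and A at any stage. Mesoderm had 20.3, 4.88, 10.8 and 9.02 FPKM of Etv2 in the 4 embryos, against 2.02, 1.95, 2.73 and 2.23 FPKM in endoderm. The lowest mesoderm value lay above the highest endoderm value. The difference was 1.48 ± 0.22 (SE; limma, adjusted p = 0.00271), in 4 of 4 embryos. Mesoderm, at 11.2 ± 6.52 FPKM, exceeded P, at 3.77 ± 0.74 FPKM (SD, n = 4 each), by 0.52 ± 0.15 (SE; limma, adjusted p = 0.0229). In the sections shared with A it had 9.16 ± 3.63 FPKM, against 1.65 ± 0.92 FPKM in A (SD, n = 4 each), and exceeded it by 1.41 ± 0.30 (SE; limma, adjusted p = 0.0270).

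The proximal rise of Etv2 was steep in 3 embryos and nearly flat in the other. In E7.0 embryo 1 the 3 most proximal M sections averaged 55.5 FPKM, against 0.517 FPKM in the distal 3, and section 11 alone held 144 FPKM, the highest value of any member in any library. In E7.0 embryo 2 the proximal 3 averaged 5.88 FPKM and the distal 3 5.46 FPKM. At E7.5 the proximal 3 MA sections averaged 37.3 and 26.7 FPKM in embryos 5 and 6, against 0.821 and 2.39 FPKM in the distal 3. Those of MP averaged 19.8 and 15.5 FPKM, against 2.80 and 1.45 FPKM. The slopes were 5.40, 0.13, 4.50 and 4.10 in the 4 embryos, with a fitted mean of 3.53 ± 0.63 (SE; limma, adjusted p = 8.74e-06).

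Kdr and Etv2 were the 2 of 4 tested members with a rising mesoderm slope, where 0.674% of all genes had one. Both calls rest on the most proximal section and on both E7.5 embryos. The test also borrows nearly all of its certainty from the spread shared over genes: these 4 embryos leave 2 residual degrees of freedom, and the fit used a median of 19274, so the small p-values say little about the embryos' own spread. Without that section the slopes were 2.74 for Kdr and 2.59 for Etv2 (limma, adjusted p = 0.111 and 0.184), an alternative chosen after seeing the data. Without E7.5 embryo 5 the adjusted p was 0.852 for both, and without embryo 6 it was 0.758 for both. In MA alone both rose (2 of 4 tested, beside 2.81% of all genes), Kdr by 2.86 ± 0.62 and Etv2 by 5.04 ± 0.87 (SE; limma, adjusted p = 0.00349 and 0.000253). MA comes from 2 embryos, which leave 1 residual degree of freedom, and its fit used a median of 63.3. These p-values too say little about the spread between the embryos. Both MA calls were lost with no filter, at equal sum and at equal median, and with a pseudocount of 0.1 Etv2 alone kept its call. In MP their slopes were 2.78 ± 0.72 and 3.57 ± 0.76 and missed the threshold (limma, adjusted p = 0.415 and 0.165). No member of 3 tested passed there, beside 0.153% of all genes.

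Other tissue moved along the same axis. Of the lateral and extraembryonic mesoderm genes 8 of 13 tested had rising slopes, beside the 0.674% of all genes, led by Hand1 (5.39), a factor of extraembryonic and lateral mesoderm, Pmp22 (5.30), Msx2 (4.40) and Foxf1 (3.94). Of the visceral endoderm genes 4 of 9 did, among them the transport protein genes Ttr (4.12) and Rbp4 (3.69). Summed over the 10 visceral endoderm genes, mesoderm libraries held 6.24 to 1022 FPKM at E7.0 (median 36.7) and 1.29 to 1186 FPKM at E7.5 (median 25.4), and endoderm libraries 133 to 12565 FPKM (median 1138) and 82.9 to 12407 FPKM (median 719). Over all sections compared, distal and proximal, the endoderm libraries averaged 0.227 ± 0.108 FPKM of Kdr and 2.23 ± 0.35 FPKM of Etv2 (SD, n = 4 embryos). Whether endoderm tissue contributed to the mesoderm slopes was not tested. Depth was not tested beside these slopes. Set to an equal sum per library, the slopes were 4.04 and 4.11, with adjusted p = 0.112 and 0.379.

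In P, Etv2 also rose proximally at E6.5 and E7.0. Its P slope was 1.19 ± 0.31 at E6.5, positive in 5 of 6 embryos, and 1.87 ± 0.53 at E7.0, positive in 2 of 2 (SE; limma, adjusted p = 0.0182 and 0.0479). At E7.5 it was 0.34 ± 0.37 (adjusted p = 0.549). The P slope of Flt1 at E6.5 was 0.91 ± 0.26, positive in 6 of 6 embryos (adjusted p = 0.0278). These were 2 of 3 tested members at E6.5, beside 10.7% of all genes with a rising slope, and 1 of 3 at E7.0, beside 1.01%. At E7.5 none of 3 passed, beside 9.34% of all genes in either direction. Over all genes the median slope at E6.5 was 0.40, and with libraries set to an equal sum or an equal median neither E6.5 call held. Both E6.5 calls were lost without embryo 6, that of Etv2 without embryo 2 and that of Flt1 without embryo 3 or 4. The values of E6.5 embryo 6 were deposited under the name of another stage and used as labelled. The E7.0 call was lost without either E7.0 embryo, without E6.5 embryo 4 or 6 or E7.5 embryo 3 or 5, whose spread enters the same fit, and with the E7.0 embryos fitted alone.

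Tal1 was seen in few libraries. It reached 1 FPKM in 7 of 56 mesoderm libraries, all from the 2 most proximal sections of E7.5 MA and MP. MA sections 9 and 10 held 1.24 and 3.73 FPKM of Tal1 in embryo 5 and 3.15 and 3.47 FPKM in embryo 6. MP sections 9 and 10 held 1.19 and 2.49 FPKM in embryo 5 and 1.46 and 0.997 FPKM in embryo 6. Over all sections this came to 0.682 ± 0.090 FPKM in MA and 0.404 ± 0.157 FPKM in MP (SD, n = 2), against 0.0267 ± 0.0138 FPKM in E7.5 P (n = 4). At E7.0 M it averaged 0.0863 ± 0.0936 FPKM, with 0.941 FPKM in section 11 of embryo 1. Tal1 missed the filter in the mesoderm comparisons, and with no filter its slope of 0.91 did not pass (limma, adjusted p = 0.603). Each of the 7 libraries also held Kdr, Etv2 and Lmo2 at 1 FPKM or more. Kdr reached that level in 34 of the 56, Etv2 in 46 and both in 32. Outside mesoderm single libraries reached further, 16.8 FPKM in E5.5 A section 5 and 8.98 FPKM in E5.5 P section 4, both of embryo 1. The means of E5.5 A (1.675 ± 2.369 FPKM), the E6.0 code A/P (1.389 ± 0.864 FPKM) and E5.5 P (1.015 ± 1.103 FPKM) lay above that of MA (SD, n = 2 each).

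**Figure D2:**
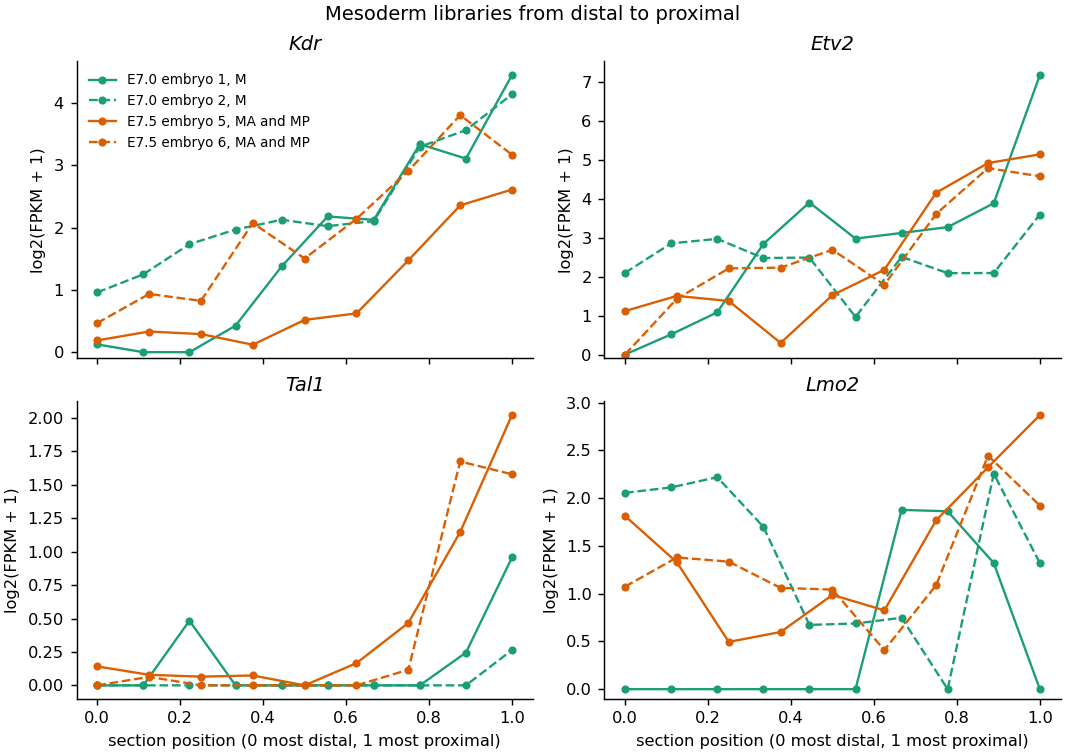
Level of Kdr, Etv2, Tal1 and Lmo2 in mesoderm, as log2(FPKM + 1), by section position from most distal (0) to most proximal (1), with a line per embryo and MA and MP averaged at E7.5. Kdr climbs in all 4 embryos, Etv2 in 3 of them, Tal1 leaves 0 at the proximal end, and Lmo2 has no common trend.

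Lmo2 had its highest means on the streak side. It averaged 5.498 ± 4.247 FPKM in E7.0 P (SD, n = 2) and 8.03 ± 3.23 FPKM in E7.5 P (SD, n = 4). The E7.5 code EA/EP, which entered no comparison, came next with 4.84 ± 1.63 FPKM (SD, n = 2). It overlapped E7.0 P within 1 SD. In A Lmo2 averaged 0.0937 ± 0.132 FPKM at E7.0 (n = 2) and 1.52 ± 1.29 FPKM at E7.5 (n = 6). In sections holding both, P had 8.61, 5.14, 5.27 and 5.46 FPKM in E7.5 embryos 3 to 6, against 0.853, 1.84, 2.20 and 0.174 FPKM in A. The groups did not overlap, and the difference was 1.70 ± 0.30 on the log2(FPKM + 1) scale (SE; limma, adjusted p = 0.000974). At E7.0 P had 3.61 and 11.8 FPKM in embryos 1 and 2, against 0.187 and 0 FPKM in A, a difference of 2.36 ± 0.42 (SE; limma, adjusted p = 0.00592). Without embryo 2, which leaves 1 embryo at E7.0 and takes the spread from the other stages, the E7.0 difference was 1.15 (adjusted p = 0.259). Fitted on the 2 E7.0 embryos alone, the call was lost (adjusted p = 0.645). Lmo2 was 1 of 5 tested members higher in P at each of these stages, beside 1.38% of all genes at E7.0 and 9.77% at E7.5.

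Earlier than E7.0, Lmo2 passed no test between P and A. At E5.5 it had 1.53 FPKM in P and 4.09 FPKM in A of embryo 1, and 0.553 and 0.306 FPKM in embryo 2. At E6.5 it averaged 0.716 ± 0.113 FPKM in P and 0.337 ± 0.197 FPKM in A (SD, n = 6 each), and the difference of 0.24 ± 0.24 did not pass (limma, adjusted p = 1). The change of the difference between E6.5 and E7.0 was 2.11 ± 0.49 and did not pass either (adjusted p = 0.160), as for the other 4 tested members, beside 0.0525% of all genes. No member of 5 tested passed between P and A at E5.5, E6.0 or E6.5, where 14.9%, 0% and 0.437% of all genes did. At E6.0 limma called no gene, with 1411 at an unadjusted p under 0.05. Against endoderm, P was higher in Lmo2 by 1.22 ± 0.18 and in Etv2 by 1.12 ± 0.12 (SE; limma, adjusted p = 3.61e-05 and 2.49e-06), each in 6 of 6 embryos. These are 2 of 7 tested members, beside 66.3% of all genes.

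Mesoderm held less Lmo2 than P. It had 0.680, 1.95, 2.32 and 2.22 FPKM in the 4 embryos, against 2.69, 8.73, 6.41 and 9.88 FPKM in P. The difference was -1.35 ± 0.22 (SE; limma, adjusted p = 0.0125), in 4 of 4 embryos. The median of all genes was -0.24 in that comparison. Within E7.5 mesoderm Lmo2 had 3.19 and 3.53 FPKM in MP, against 1.45 and 0.907 FPKM in MA of embryos 5 and 6. The groups did not overlap, but the difference of 1.17 ± 0.50 missed the threshold (limma, adjusted p = 0.749), and none of 3 tested members passed, beside 0.536% of all genes.

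**Figure D3:**
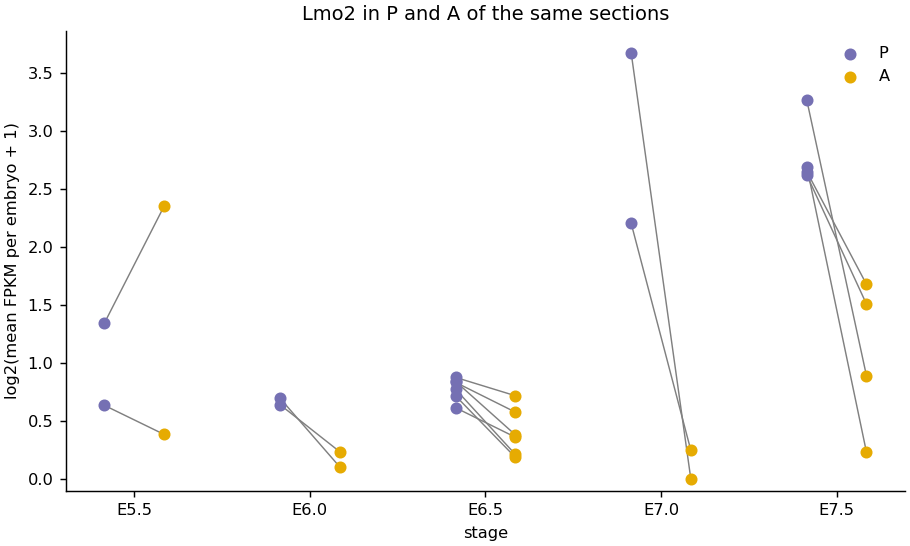
Lmo2 in P and A of the same sections, as log2 of the mean FPKM per embryo plus 1, by stage, with a grey line joining the values of an embryo. P lies above A in all 6 embryos at E7.0 and E7.5, and at E6.5 no embryo exceeds 0.835 FPKM in P or 0.645 FPKM in A.

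The other blood factors were low in mesoderm. Gata1 averaged 2.37 ± 0.48 FPKM in E7.0 EA and 2.30 ± 1.19 FPKM in E7.5 EA, and 1.29 ± 0.37 FPKM in E7.5 MA (SD, n = 2 each). Among groups of 2 or more embryos its highest mean was 2.83 ± 0.87 FPKM, in the E6.0 code A/P (SD, n = 2). Mesoderm had 0.374, 0.552, 0.668 and 0.817 FPKM of Gata1 in the 4 embryos, against 1.44, 2.23, 1.03 and 1.91 FPKM in endoderm, with a difference of -0.49 ± 0.16 (SE; limma, adjusted p = 0.0336). This call was lost with no filter (adjusted p = 0.0950), with a pseudocount of 0.1 (0.0676), without the replicate block (0.229) and without either E7.5 embryo (0.0894 and 0.346). Gata2 had 0.166, 0.217, 0.476 and 0.744 FPKM in mesoderm, against 3.11, 1.44, 1.07 and 2.43 FPKM in endoderm, a difference of -0.79 ± 0.17 (SE; limma, adjusted p = 0.00717). Neither pair of groups overlapped. In mesoderm Gata2 was higher in the 3 proximal than in the 3 distal sections in 6 of 6 stacks, with a median of 0.870 against 0.190 FPKM, and it lay below the filter for the slope. Runx1 also lay below the filter, with 0.205 ± 0.086 FPKM in mesoderm and 0.833 ± 0.264 FPKM in endoderm (SD, n = 4 embryos), lower in mesoderm in 4 of 4. Within mesoderm Runx1 too was higher in the 3 proximal sections in 6 of 6 stacks, with a median of 0.364 against 0.0665 FPKM. No stack mean of Runx1 exceeded 0.600 FPKM, and 1 read was worth 0.0540 FPKM in the median library. The 6 stacks come from 4 embryos, as MA and MP share their embryos. The share of all genes higher in 6 of 6 was not counted, and their median mesoderm slope was 0.44. Runx1 reached 1 FPKM in none of the 56 mesoderm libraries.

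Cdh5 and Pecam1 were highest in endoderm libraries. Cdh5 had 0.0814, 0.0146, 0.0303 and 0.0326 FPKM in mesoderm of the 4 embryos, against 2.37, 2.38, 0.661 and 3.92 FPKM in endoderm. Pecam1 had 0.0784, 0, 0.133 and 0.528 FPKM in mesoderm, against 5.04, 1.68, 0.331 and 1.71 FPKM in endoderm. For Cdh5 the groups were far apart, and for Pecam1 a mesoderm embryo lay above an endoderm embryo. The differences were -0.95 ± 0.17 and -0.85 ± 0.19 (SE; limma, adjusted p = 0.00417 and 0.00966), each lower in 4 of 4 embryos. Both average E7.0 and E7.5, and at E7.5 alone 0 members were called lower, beside 674 of 9910 genes. Pecam1 lost its call with no filter (adjusted p = 0.0695). Without E7.5 embryo 6 Pecam1, Gata1 and Gata2 lost their calls, and Cdh5, Kdr and Etv2 held theirs. P was likewise lower than endoderm in Cdh5 (-0.85), Gata2 (-0.87), Pecam1 (-0.77) and Gata1 (-0.61), 4 of 7 tested members (limma, adjusted p from 0.000158 to 0.00145), beside 11.4% of all genes. At E6.5, E7.0 and E7.5 alone 0, 4 and 3 members were lower, beside 390, 985 and 953 of 10227 genes. Cdh5, Gata2, Pecam1 and Gata1 lay under 1 FPKM in P of every embryo and passed the filter only through endoderm, so the filter favours such calls. Cdh5 reached 1 FPKM in none of the 56 mesoderm libraries.

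**Figure D4:**
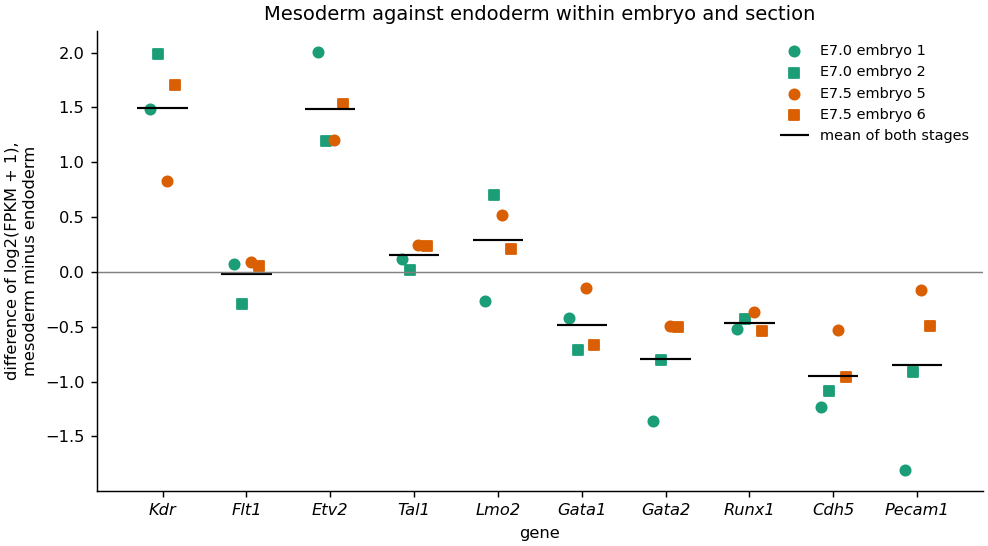
Difference between mesoderm and endoderm of the same embryo and section for each gene, in log2(FPKM + 1), with a point per embryo and a bar at the mean of both stages. Kdr and Etv2 lie above 0 and Gata1, Gata2, Runx1, Cdh5 and Pecam1 below 0 in all 4 embryos.

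Some markers of tissue outside the embryo were high in the same endoderm libraries. In mesoderm 6 of 8 tested trophoblast and extraembryonic ectoderm genes, all 4 adult globin genes and all 7 parietal endoderm genes were lower than in endoderm, beside 14.4% of all genes. The 13 trophoblast genes summed to 0.515 to 63.7 FPKM in E7.0 mesoderm (median 8.85) and 7.65 to 11056 FPKM in E7.0 endoderm (median 365). At E7.5 they summed to 0.504 to 138 FPKM in mesoderm (median 13.6) and 12.1 to 5448 FPKM in endoderm (median 126). The 4 adult globin genes summed to 5.43 to 2405 FPKM in E7.0 mesoderm and 667 to 50168 FPKM in E7.0 endoderm, while the 3 embryonic globin genes had a median of 0 in both. The 7 parietal endoderm genes summed to 8.36 to 94.2 FPKM in E7.0 mesoderm and 31.5 to 1663 FPKM in E7.0 endoderm.

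The endoderm libraries with most Cdh5 held some endothelial genes and not others. In the 10 highest of 104, Cdh5 ran from 5.81 to 54.9 FPKM and Prl3d1, a placental prolactin gene of trophoblast giant cells, from 490 to 8311 FPKM. Pecam1 ran from 1.80 to 18.5 FPKM in those 10 (median 7.91, against 0.205 over all 104) and Esam from 0 to 32.5 FPKM (median 6.28, against 0). Cldn5 was at 0 in those 10, Tie1 reached 0.178 FPKM, Tek 1.79 FPKM and Plvap 3.01 FPKM. Over all 104, Tek was at 0 in 83, Tie1 in 82, Cldn5 in 100 and Plvap in 74. Across the 104 libraries Prl3d1 correlated with Pecam1 by 0.74, Cdh5 by 0.73, Gata2 by 0.59, Gata1 by 0.26 and Runx1 by -0.22, on the log2 scale. These are descriptions over sections of 6 embryos that share embryo and depth, and prolactin genes share reads with close copies. Whether tissue from outside the embryo contributed to the endoderm values of the members was not tested. The highest library, EA section 6 of E7.5 embryo 6, held 54.9 FPKM of Cdh5 and 21.6 FPKM of Gata2. Without it, an alternative chosen after seeing the data, the differences of Cdh5, Pecam1, Gata2 and Gata1 were -0.87, -0.78, -0.72 and -0.52 and still passed (limma, adjusted p from 0.00556 to 0.0361).

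**Figure D5:**
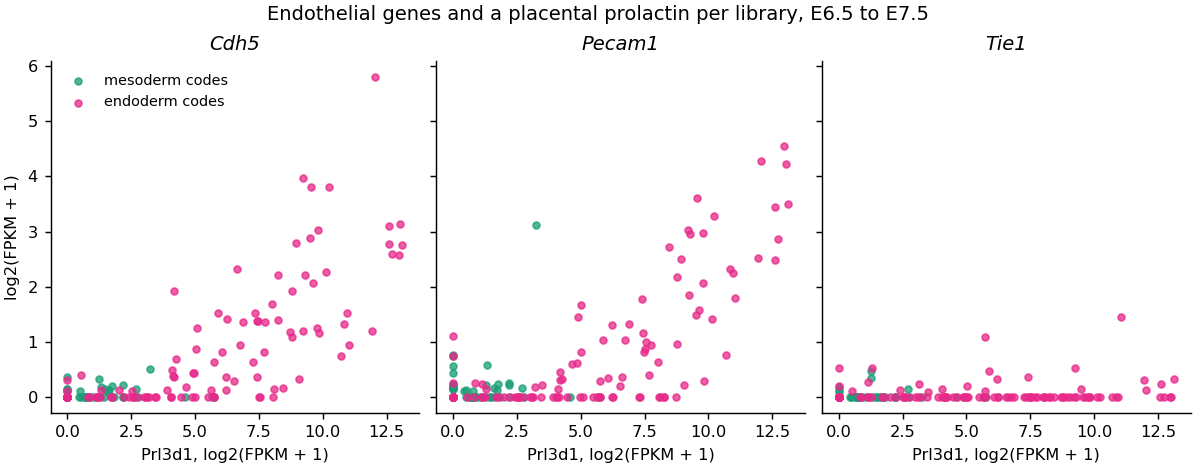
Cdh5, Pecam1 and Tie1 against Prl3d1, each as log2(FPKM + 1), in mesoderm and endoderm libraries of E6.5 to E7.5, with a point per library. Cdh5 and Pecam1 climb with Prl3d1 in endoderm libraries (r = 0.73 and 0.74, 104 libraries), and Tie1 stays at or near 0.

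Partners of the same pathways were mixed. Of the VEGF ligands and co-receptors, 4 of 7 could be tested between mesoderm and endoderm. Vegfa, the ligand of KDR, was lower in mesoderm by 1.54 on the log2 scale (difference -1.54, SE 0.21; limma, adjusted p = 0.00271), and none was higher. Nrp1, a co-receptor, had a rising mesoderm slope of 3.71 ± 0.64 (SE; limma, adjusted p = 3.41e-06), as 1 of 4 tested, beside 0.674% of all genes. Of 6 blood and endothelial factors tested between mesoderm and endoderm, 4 were higher in mesoderm, including the LMO2 and TAL1 partners Ldb1 (0.72) and Tcf3 (0.69) and the RUNX1 partner Cbfb (0.40), and 2 lower, including Sox7 (-1.68). The median over these 6 was 0.38, beside 0.17 over all genes. None of 7 factors tested had a mesoderm slope that passed. Of endothelial surface genes, 2 of 3 tested (Ramp2 and Esam) were lower in mesoderm than in endoderm. Of early blood receptors Cd44 was higher (0.60) and Kit lower (-0.68) in mesoderm than in endoderm among 3 tested. Beside these counts, 30.6% of all genes were higher and 14.4% lower in mesoderm. No embryonic globin gene passed the filter. Against P, 2 of 4 tested VEGF genes were higher in mesoderm, Vegfa (0.58) and Nrp1 (1.59), beside 3.64% of all genes.

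No member passed the test of mesoderm level between the stages. Kdr averaged 2.88 ± 2.07 FPKM in E7.5 mesoderm and 5.01 ± 0.50 FPKM in E7.0 mesoderm, and Etv2 9.90 ± 1.25 FPKM at E7.5 and 12.6 ± 10.9 FPKM at E7.0 (SD, n = 2 each), in FPKM as deposited. For the test, which sets embryos against each other, each library was rescaled to the same sum of FPKM. On that scale the log2 differences were -0.67 for Kdr, -0.87 for Flt1, 0.74 for Lmo2 and -0.26 for Etv2, and 0 of 4 tested passed (limma, adjusted p = 0.9997 for each), beside 0.384% of all genes. Of the 4, none had an unadjusted p under 0.05. Not rescaled, the differences were -0.55, -0.60, 0.43 and -0.12, again with 0 of 4 passed, and the count of all genes called was 3 where it was 37. Without section 11 of E7.0 embryo 1 the difference of Etv2 was -0.01 on the rescaled values.

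The genes most alike in pattern differed by group. Likeness was taken over about 9199 genes and all 320 matched libraries of E7.0 and E7.5, with codes such as L, R, M1 and M2 included. Kdr was most like Foxf1 (r = 0.65), Wnt2 (0.63) and Cdh11 (0.60), and Etv2 most like Pmp22 (0.52), Ppic (0.49) and Has2 (0.49). Tal1 was most like Pmp22 (0.50), Foxf1 (0.48) and Bmp4 (0.44). Lmo2 was most like Tbx6, Wnt3a and T (0.60 each), 3 streak and presomitic genes. Flt1 was most like Lhx1 (0.66), Eomes (0.59) and Tcf7l2 (0.58), and Gata1 like Cer1 (0.58), an anterior endoderm gene. Runx1 was most like Hnf4a (0.66), Creb3l3 and Slc7a8 (0.63 each). Gata2 was most like Plac1 (0.66), Cdh5 like Procr (0.80) and Pecam1 like Prl7a1 (0.80), and each of these 3 also had Prl3d2 and Prl3d3 next (0.64 to 0.80). Among the members themselves Cdh5 and Pecam1 correlated most (0.77), then Gata2 with Pecam1 (0.63) and with Cdh5 (0.60), and Kdr with Etv2 (0.49). Kdr and Flt1 correlated by 0.19. These values describe libraries that share embryos, and sections of an embryo are not independent.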

How the data were processed

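Geo-seq libraries of laser-dissected regions of C57BL/6 embryos were used. Per the submitters' processing notes, TopHat2 2.0.8b, Cufflinks 2.1.1 and mm10 were used, and the authors deposited FPKM in 18 tables, 1 per embryo. FPKM is per length and scaled to the reads of its library, so a few abundant genes lower all others. No source used here gives the annotation or the options. Columns were assigned to labels by embryo, section and region; 111 columns and 113 samples had no match and were left out. The E6.5 embryo 6 values stand in a table named for another stage and were used as labelled.

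The embryo was the replicate. Differences of log2(FPKM + 1) within embryo and section, or slopes over sections scaled from 0 to 1, were averaged per embryo. Mesoderm levels were compared between stages after setting each library to an equal FPKM sum. Each family of comparisons was fitted with stage as the term, using limma 3.58.1 in R 4.3.3 (empirical Bayes, trend and robust). Genes with a mean of at least 1 FPKM in the libraries used of at least 1 stage were tested. P-values were adjusted over all genes tested (Benjamini-Hochberg, threshold 0.05, two-sided). Fold changes on this scale understate low genes. Pairing comes from regions of the same embryo and section; deviations of A and P from their stage means correlated within embryos by 0.318 to 0.887 across genes. The fit was tested on simulated data, but no outcome of that is given here, so it lends no weight to these results. Alternatives were equal sums or medians per library, a pseudocount of 0.1, no filter, no block, and leaving out embryos or libraries; leaving out E7.5 embryo 6 EA section 6, E7.0 embryo 1 M section 11 or the most proximal section was chosen after seeing the data.

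Members and gene lists were chosen with earlier results of these data known. All 10 members are named. List genes given with a test are among those with the smallest p of their list in that comparison. Tissue and endothelial markers given by level alone were chosen by name. Likeness is the 3 highest Pearson correlations.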

Additional observations from a re-analysis of the deposited data

Results flagged for a closer look

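In E6.5 A the Etv2 mean of embryo 1 was 18.29 FPKM, far above the other 5 embryos at 2.208 to 6.894 FPKM. Its section 7 library alone held 62.7 FPKM of Etv2.

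The P minus A difference of Tal1 at E6.5 was -0.5328 in embryo 6, outside the range of -0.184 to 0.0245 in the other 5 embryos. For Pecam1 at E7.5 it was -0.1998 in embryo 4, against -0.0177 to 0 in the other 3. These values lie near 0: embryo 4 had 0 FPKM in P and 0.157 FPKM in A, and embryos 5 and 6 had 0 in both. A test of this kind picks out about 1 group in 20 by chance, and 3 were picked out here. The number of groups tested is not given, so the 3 cannot be set against that rate.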

How the results depend on the processing

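Counts of members that pass moved beyond 1.5 times in 47 of 258 alternatives. The P against A call at E7.0 (Lmo2) fell to 0 with that stage alone. With no filter or a pseudocount of 0.1 the count was 0 for mesoderm against P and against A. It was 0 for mesoderm against A at equal sum, and 0 for the mesoderm slope with no filter, at equal sum and without the most proximal section. For the P slope at E6.5 it was 0 with no filter, at equal sum and at equal median and 1 at a pseudocount of 0.1. At E7.0 it was 0 in each of these, without the 4 libraries led by 1 gene and with the stage alone. For the MA slope it was 0 with no filter, at equal sum and at equal median and 1 at a pseudocount of 0.1.

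Without the replicate block, that is, without pairing within embryo and section, mesoderm against A had 1 call (Kdr) and MP against MA 1 (Lmo2). Leaving out an embryo gave 0 to 1 calls for P against A at E5.5 and E7.0, 3 to 7 against endoderm, 0 to 3 against P, 0 to 1 against A, 0 to 3 for the mesoderm slope, 0 to 2 for the P slope at E6.5 and 0 to 1 at E7.0 and E7.5.

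Of 1955 single differences 1771 kept their side of the threshold, 144 lost and 40 gained a call. Among the 1771, 52 changed sign while uncalled in both settings, and 0 called ones changed sign. Equal sums moved the median of all genes by -0.24 for the mesoderm slope, and of the genes called in mesoderm against P 39.6% then were higher, where 7.54% were before. The same step took the share of higher calls to 48.3% at E7.0 and 54.6% at E7.5 for P against A (60.1% and 75.5% before), to 18.1% for mesoderm against A (40.6%), and to 81.2% and 43.0% for the P slopes at E6.5 and E7.5 (96.1% and 91.4%). Having 2 mesoderm embryos per stage, about 20 cells per library and no read counts limit the precision. Leaving out an embryo was not run for MP against MA and for the MA and MP slopes, which have 2 embryos.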

Other observations

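Embryo 4 at E7.5 has 2 region codes, M1 and M2, that entered no comparison between regions, with 9 libraries each. In M2 Etv2 held 14.2 and 16.8 FPKM in sections 9 and 10 and at most 5.67 FPKM in the other 7. Kdr held 2.63 and 2.98 FPKM in those sections and under 1 FPKM elsewhere in M2, and Tal1 held 2.05 FPKM in section 10. In M1 Etv2 reached 4.91 FPKM, Kdr 1.93 FPKM and Tal1 was at 0 in all 9. The code E1 of the same embryo held 10.0 FPKM of Tal1 in section 7 and 33.5 FPKM of Etv2 in section 10.

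Visceral endoderm (VE) of E6.0 embryo 2 has 4 libraries. Kdr, Etv2 and Lmo2 were at 0 in all 4, Gata2 ran from 0.866 to 3.90 FPKM, and Gata1 held 23.4 FPKM in section 1, its highest value in the series, and was at 0 in the other 3.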
